A study of Mus musculus with 4 samples.

Results

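The cells described here are Eomes-positive Nkg7-positive T cells among the ChAT-eGFP+ cells of mouse inguinal subcutaneous white adipose tissue (IWAT). They were chosen by raw counts of unique molecular identifiers (UMIs, 1 per captured RNA molecule). A cell was taken with at least 1 UMI of Eomes, at least 1 of Nkg7 and at least 2 of Cd3d, Cd3e and Cd3g together, and with no UMI of Cd79a, C1qa, Trdc, Foxp3 or Top2a. The cell also had to hold more than 200 and fewer than 5000 genes and under 7.5% mitochondrial UMIs. This rule found 191 cells among 21249 that met the gene and mitochondrial limits, out of 26654 deposited.

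Live single ChAT-eGFP+ cells were sorted from the stromal vascular fraction (SVF) of male ChATBAC-eGFP mice, which carry eGFP under the choline acetyltransferase gene on a bacterial artificial chromosome. All mice lived at 30 °C, their thermoneutral temperature, for 3 weeks from the age of 5 weeks, and then either stayed at 30 °C for 4 h more or were taken to 4 °C for 4 h. The mice taken to 4 °C also spent a day at room temperature before the cold, so that the effects of both steps cannot be told apart. Each temperature had 2 libraries and each library pooled 4 mice, so that a comparison of temperatures was one of 2 libraries against 2. The sort on eGFP makes every statement one about ChAT-eGFP+ T cells, not about all T cells of the depot.

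Eomes encodes a T-box transcription factor (eomesodermin) that directs the effector and memory programs of CD8 T cells and of natural killer (NK) cells. Nkg7 encodes a membrane protein of cytotoxic granules. Both are also found in natural killer T (NKT) cells and in some CD4 T cells that make granzyme K or interleukin 10, so that neither gene alone fixes a lineage, and the CD4 and CD8 co-receptors, the T-cell receptor and the transcription factor PLZF (Zbtb16) were therefore read beside them.

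The libraries held 36 and 47 of these cells at 30 °C (replicates 1 and 2) and 50 and 58 at 4 °C. Their median depth was 6632 and 6753 UMIs at 30 °C, against 8141 and 9803 UMIs at 4 °C, and their UMIs summed to 275991, 369195, 462221 and 625775. Thus the cells were deeper in both libraries at 4 °C. The steps of the rule went from 423 cells with Eomes to 344 with Nkg7 as well, 340 with CD3 UMIs and 191 after the genes that had to be absent. Top2a, a gene of dividing cells, removed 99 of these 340 cells and the B cell gene Cd79a removed 55, with some cells lost to more than 1 gene. Just inside the rule lay 40 cells with exactly 1 Eomes UMI and 25 with exactly 1 Nkg7 UMI. Just outside it lay 385 cells that failed only by lacking Eomes, 32 only by lacking Nkg7 and 5 only by their mitochondrial share. A doublet caller run in each library marked 1 of the 191 cells. Of all deposited cells, 162 had a barcode that occurred in another library too, and 1 of these was among the 191.

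In each library the cells made up 0.694% and 0.872% of the cells kept at 30 °C, and 0.939% and 1.09% at 4 °C. The mean was 0.783% ± 0.126 (SD, n = 2) at 30 °C and 1.01% ± 0.103 (SD, n = 2) at 4 °C. The ranges did not overlap, but an exact two-sided permutation test of 2 libraries against 2 cannot go below p = 0.33, which is what this difference gave. Among CD3-positive cells that met the other limits, the shares were 5.46% and 6.12% at 30 °C and 5.94% and 7.47% at 4 °C, which overlapped (exact permutation p = 0.667). These shares depend on how many cells of other kinds were sorted.

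The label of a T cell was borne out by the T-cell receptor genes, which the rule did not use. Trbc2, a constant region of the β chain, had a UMI in all 191 cells, and Trac, the constant region of the α chain, in 97.9% of them, against 10.5% and 5.61% in B cells of the same libraries. B cells, taken as cells with at least 2 Cd79a UMIs and no CD3 UMI, should lack these genes and had a median of 8251 UMIs, so their shares gauge free RNA. Variable segments were seen in few cells, since the libraries read the 3′ end. In 40 cells 24 different Trav genes were found with 54 UMIs, and in 56 cells 18 different Trbv genes with 67 UMIs. The most frequent was Trbv17 with 12 UMIs in 11 cells, followed by Trbv12-2 with 11 UMIs in 9 cells. In other T cells, which here means CD3-positive cells under the same limits with neither an Eomes nor an Nkg7 UMI, Trbv17 made up 0.566% of the Trbv UMIs (3 UMIs), against 17.9% here, where it was found in all 4 libraries. Trbv12-2 made up 12.1% there and 16.4% here.

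Of 6 genes listed for NKT cells, 2 were found. Zbtb16, which encodes the transcription factor PLZF, had no UMI in 191 cells, which allows up to 1.57% of cells with a UMI (3 counts) and sets no limit on cells that express it, since such a gene is missed in many cells at this depth. In other T cells Zbtb16 had a UMI in 2.17% of cells. Trav11 and Trav11d, the α-chain segment of invariant NKT cells, had none either, and Klrb1c (NK1.1) had 2 UMIs. The chemokine gene Xcl1, which NK cells and CD8 T cells also express, had the other 169 UMIs of the list. The list summed to 39.9, 5.42, 93.0 and 184 CPM (UMIs of the summed cells, scaled to the same total in each library), against 7.84 to 21.2 CPM in other T cells, and was thus higher in 3 of the 4 libraries. Trav11 is rarely read at the 3′ end, and in other T cells it had 15 UMIs, so its absence from 191 cells says little at this depth.

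Of 15 genes listed for NK cells, 11 were found, summing to 50.7 and 103 CPM at 30 °C, and at 4 °C to 30.3 and 165 CPM. Other T cells had 72.9 and 55.4 CPM at 30 °C, and at 4 °C 52.3 and 42.7 CPM, so that the cells lay above them in replicate 2 of each temperature. The NK receptor gene Ncr1 had no UMI. Beside Klrd1 with 60 UMIs, Klrc1 had 33, Klrk1 26, Klrc2 19 and Klre1 18, all of which encode killer cell lectin-like receptors. Klrd1, which encodes CD94 and is shared by NK cells and CD8 T cells, had a UMI in 23 of the 191 cells against 0.670% of B cells and 0.862% of other T cells. Il13, Il5, Il17rb and Calca, genes of group 2 innate lymphoid cells, had no UMI. Of the γδ T cell list, Trdc was set to 0 by the rule and the other 6 genes summed to between 0 and 10.9 CPM in a library.

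The co-receptors divided the cells. Of the 191 cells, 63 had a UMI of Cd8a or Cd8b1 and none of Cd4 (33.0%, 95% exact Clopper-Pearson interval 26.4% to 40.1%). A further 29 had a Cd4 UMI and no Cd8 UMI (15.2%, 10.4% to 21.1%), 4 had both (2.09%) and 95 had neither (49.7%, 42.4% to 57.0%). These intervals cover counting error only. By contrast, a Cd8 UMI was found in 5.05% of other T cells and 1.74% of B cells, and a Cd4 UMI in 53.5% of other T cells and 0.949% of B cells, so both the 35.1% of the cells with a Cd8 UMI and the 17.3% with a Cd4 UMI lay above free RNA. With each cell reduced to 4000 UMIs, which left out 9 of the 191 cells, 386 other T cells and 252 B cells, Cd8 UMIs were found in 25.8% against 3.27% of other T cells, and Cd4 UMIs in 11.5% against 44.0%. The share of the cells with neither was then 62.6%, so that a co-receptor can be missed at low depth. Cells with neither therefore remain unassigned. Of other T cells 44.5% had neither at full depth, and whether some of these truly lack both was not tested.

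Cd8b1, the β subunit of CD8 that classical CD8 T cells carry, had 173 UMIs in the 191 cells, and Cd8a 103, with a UMI in 31.9% and 15.2% of the cells. These counts come from 3′ ends and were not scaled to gene length. Runx3, the transcription factor of the CD8 lineage, had a UMI in 35.1% of the cells and in 29.1% of other T cells, and thus set them apart little. Zbtb7b, which encodes ThPOK, the factor of the CD4 lineage, had 11 UMIs in all and a UMI in 4.19% of the cells against 21.9% of other T cells. None of its UMIs lay in the 95 cells with neither co-receptor, which allows a share of up to 3.16%, although B cells had a Zbtb7b UMI in 9.98%.

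The share with a Cd4 UMI and no Cd8 UMI was 5.56% and 10.6% at 30 °C and 18.0% and 22.4% at 4 °C. Its mean was 8.10% ± 3.59 (SD, n = 2) at 30 °C and 20.2% ± 3.12 (SD, n = 2) at 4 °C, and the libraries of the 2 temperatures did not overlap (exact permutation p = 0.33, the smallest possible). At 4000 UMIs per cell these means were 6.51% ± 0.891 and 15.2% ± 1.62, and these libraries were again lower at 30 °C. In other T cells the same share was 46.3% and 42.5% at 30 °C against 55.0% and 57.4% at 4 °C, and in T cells with a Foxp3 UMI 46.9% and 47.9% against 53.3% and 54.1%, which did not overlap either. The share with a Cd8 UMI overlapped between temperatures, at 33.4% ± 3.97 and 36.4% ± 5.12 (SD, n = 2 each, exact permutation p = 0.667). The share with neither was 63.9% and 53.2% at 30 °C and 42.0% and 44.8% at 4 °C.

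**Figure D1:**
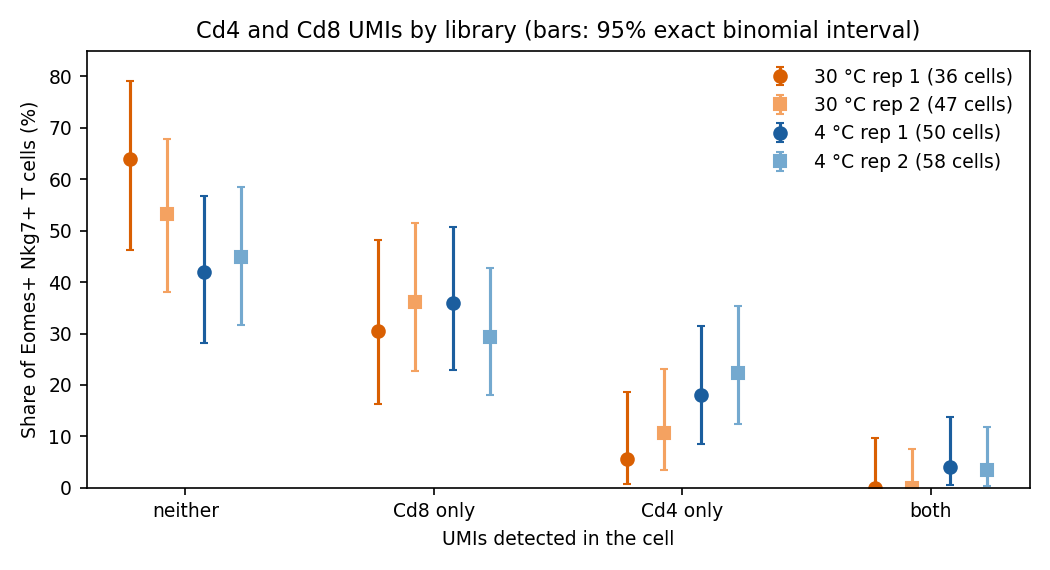
Share of Eomes+ Nkg7+ T cells (y axis, percent) by the co-receptor UMIs found in the cell (x axis), 1 point per library with its 95% exact binomial interval. Cells with neither lie highest in all 4 libraries, and Cd4-only cells lie at 5.56% and 10.6% at 30 °C and at 18.0% and 22.4% at 4 °C.

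The cells with Cd4 differed from the rest in genes that the rule did not use. The 3 groups are described over the 4 libraries together with no test, since cells are not replicates. Median depth was 6753 UMIs in the 29 Cd4-only cells, 9468 in the 63 Cd8-only cells and 6844 in the 95 cells with neither. Ly6c2, a surface protein of memory CD8 T cells, had a UMI in 10.3% of Cd4-only cells, 82.5% of Cd8-only cells and 87.4% of cells with neither. Slamf7, a SLAM family receptor of cytotoxic lymphocytes, had one in 51.7%, 84.1% and 97.9%. Of the Cd4-only cells 22 of 29 came from 4 °C, of the Cd8-only cells 35 of 63 and of those with neither 47 of 95, so that shares pooled over libraries mix group and temperature. At 4000 UMIs per cell the Ly6c2 shares were 7.14%, 75.8% and 85.2%, so depth left the order as it was.

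The Cd8-only cells fell into separate sets by their Cd8 UMIs, which was seen after their values were known. In 49 of the 63 cells there were 1 to 4 Cd8 UMIs, and in 14 there were 9 to 21, with none between. These 14 cells held 195 of the 270 Cd8 UMIs, at a median depth of 10370 UMIs against 9442. Ly6c2 had a UMI in 7 of the 14 cells and in 45 of the 49 (91.8%), and Slamf7 in 7 and 46 (93.9%). Epcam and Myb had a UMI in 2 of the 14 cells each, but in 43 and 46 of the 49, and Fst in none against 20. The 49 cells near the limit of detection thus lay near the cells with neither co-receptor in these genes, and the 14 did not.

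Conversely, Runx3 had a UMI in 13 of the 14 cells with many Cd8 UMIs and in 18 of the 49 (36.7%). Klrd1 had one in 9 of the 14 (64.3%) and in 7 of the 49 (14.3%). Il7r had one in 9 of the 14 and in 5 of the 49 (10.2%). The 14 cells came from 30 °C (5 cells) and from 4 °C (9 cells).

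Other genes were more frequent in the Cd4-only cells. Gzmk, which encodes granzyme K, had a UMI in 82.8% of Cd4-only cells, 33.3% of Cd8-only cells and 38.9% of cells with neither, and Maf, a transcription factor of interleukin 10 producing CD4 T cells, in 82.8%, 20.6% and 30.5%. Il10 itself had a UMI in 6 of the 29 Cd4-only cells, in 1 of the 63 Cd8-only cells and in none of the 95 with neither, which allows up to 3.16%. Pdcd1, the checkpoint receptor PD-1, had a UMI in 31.0%, 9.52% and 2.11%. Ifng, the cytokine interferon γ, had a UMI in 4 of 7 Cd4-only cells at 30 °C and 4 of 22 at 4 °C, in 1 of 28 and 5 of 35 Cd8-only cells, and in 0 of 48 and 3 of 47 with neither. Within each temperature Gzmk and Maf were most frequent in the Cd4-only cells too, with Gzmk in 85.7%, 39.3% and 35.4% at 30 °C and in 81.8%, 28.6% and 42.6% at 4 °C. At 4000 UMIs the Gzmk shares were 60.7%, 16.1% and 33.0% and the Maf shares 60.7%, 8.06% and 23.9%. Klrd1, by contrast, had a UMI in 25.4% of Cd8-only cells and 7.37% of cells with neither. It had none in the Cd4-only cells, which allows up to 10.3% of so few cells. Over all libraries Maf was higher per UMI in other T cells, at 11014 of 15855204 UMIs against 102 of 263969 in Cd4-only cells. Cd4-only cells had 909 CPM of Maf at 30 °C (39 UMIs) and 285 CPM at 4 °C. A list of 10 genes of interleukin 10 producing CD4 T cells holds Gzmk and Maf. In all 191 Eomes+ Nkg7+ T cells together this list summed to 315, 563, 344 and 476 CPM, against 777 to 912 CPM in other T cells. It was thus lower in all 4 libraries. These sums do not describe the 29 Cd4-only cells, for which the list was not summed.

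**Figure D2:**
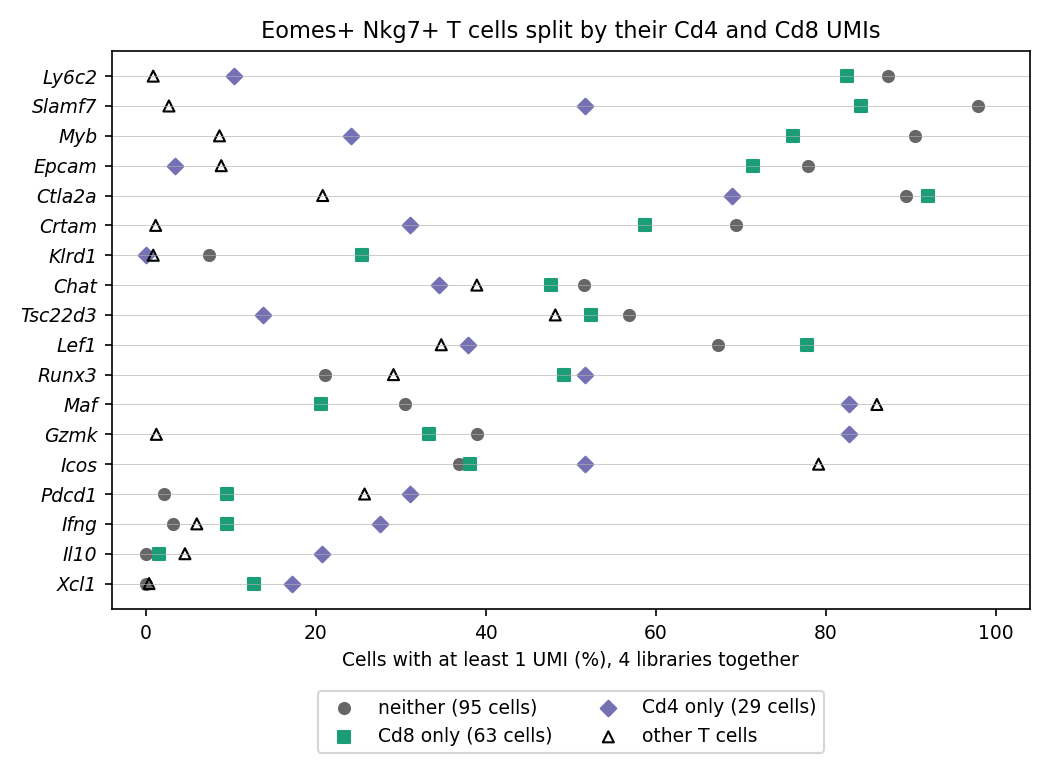
Share of cells with at least 1 UMI (x axis, percent) of named genes (y axis) in Eomes+ Nkg7+ T cells with neither co-receptor, with Cd8 only and with Cd4 only, and in other T cells, over the 4 libraries. In Ly6c2 the Cd4-only cells lie at 10.3%, far below the 82.5% and 87.4% of the other Eomes+ Nkg7+ cells, and in Gzmk they lie at 82.8%, above both.

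Cytotoxic genes were unevenly present. Prf1, which encodes the pore-forming protein perforin, had a UMI in 34.6% of the 191 cells and in 1.89% of other T cells. Gzmb (granzyme B) had one in 17.3% against 5.01%, and Gzma in 3.14% against 0.985%. The whole list of 12 cytotoxic granule genes, led by Srgn (serglycin), summed to 1323, 1687, 1811 and 1528 CPM against 1753, 1766, 1545 and 1651 CPM in other T cells, and was thus lower in 3 of the 4 libraries. Tbx21, which encodes T-bet, the T-box factor most related in role to Eomes, had 9 UMIs and a UMI in 3.66% of the cells, close to the 3.57% of other T cells. Mki67, a gene of dividing cells that the rule left in, had a UMI in 6.28%.

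Ccl5, a chemokine of effector and memory T cells, was carried by few cells, most of its UMIs by cells with Cd4. The 29 Cd4-only cells held 4398 of its 6220 UMIs, the 63 Cd8-only cells 1696 (1335 of them in the 14 cells with many Cd8 UMIs) and the 95 cells with neither 97. Its UMIs numbered 73 and 1923 at 30 °C and 508 and 3716 at 4 °C. In the library with 1923 UMIs, 5 cells held 97.3% of them, and 1 cell of 4 °C replicate 2 alone had 1374 UMIs. Of the 191 cells, 41.4% had a Ccl5 UMI. Its level in a library was therefore that of single cells, and the fit across all genes gave a log2 fold change of 0.30 (SE 2.02). Xcl1, a chemokine that draws cross-presenting dendritic cells, was likewise found in 14 cells, 1 of which had 68 of its 169 UMIs.

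Compared with other T cells, 62 of 11210 genes lay past 4-fold in the same direction in all 4 libraries, 31 higher (0.277% of the genes compared) and 31 lower (0.277%). Ratios are log2 of CPM + 10, which understates changes of low genes. Against other T cells with a Cd4 UMI and no Cd8 UMI, 33 genes lay past 4-fold higher and 16 lower. The cells were chosen by their expression, so these ratios are a description with no test. Highest were the label genes Ly6c2 and Slamf7, with a mean log2 ratio of 6.16 ± 0.35 and 5.29 ± 0.31 (SD, n = 4), which became 5.00 and 4.14 with Eomes or Nkg7 in place of both. Ly6c2 stood at 783, 1251, 1004 and 860 CPM in the 4 libraries against at most 4.04 CPM in other T cells. Slamf7 stood at 678, 658, 766 and 641 CPM against at most 13.1 CPM. Neither overlapped with other T cells, nor did either differ between temperatures beyond its spread, with log2 fold changes of -0.19 (SE 0.18) and 0.02 (SE 0.15).

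Below these came Ptprk, a receptor tyrosine phosphatase, with a mean log2 ratio of 4.55 ± 0.19 and 399 UMIs against 9 in all other T cells. Myb, a transcription factor of progenitors and of memory T cells, followed with 3.99 ± 0.31 and Plek (pleckstrin, a protein kinase C substrate) with 3.91 ± 0.25. Ctla2a, an inhibitor of cathepsins, had 3.73 ± 0.39 and rose to 1644 CPM in its highest library. The adhesion genes Crtam (3.72 ± 0.23) and Epcam (3.55 ± 0.30) were among the highest. Gzmk had 3.48 ± 0.90, the widest spread of the genes named here, from 50.7 CPM in 30 °C replicate 1 to 244 CPM in 30 °C replicate 2.

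Further genes among the highest were Ddc (aromatic amino acid decarboxylase, 3.71 ± 0.30), Nr4a2 (an orphan nuclear receptor, 3.47 ± 0.27), Fst (follistatin, which binds activin, 3.38 ± 0.64), Tubb2b (a tubulin, 3.35 ± 0.47) and Kcnc1 (a voltage-gated potassium channel, 3.22 ± 0.58). Fst had no UMI in the 29 Cd4-only cells and a UMI in 31.7% of Cd8-only cells and 40.0% of cells with neither. Epcam had a UMI in 3.45%, 71.4% and 77.9%, and Myb in 24.1%, 76.2% and 90.5%.

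**Figure D3:**
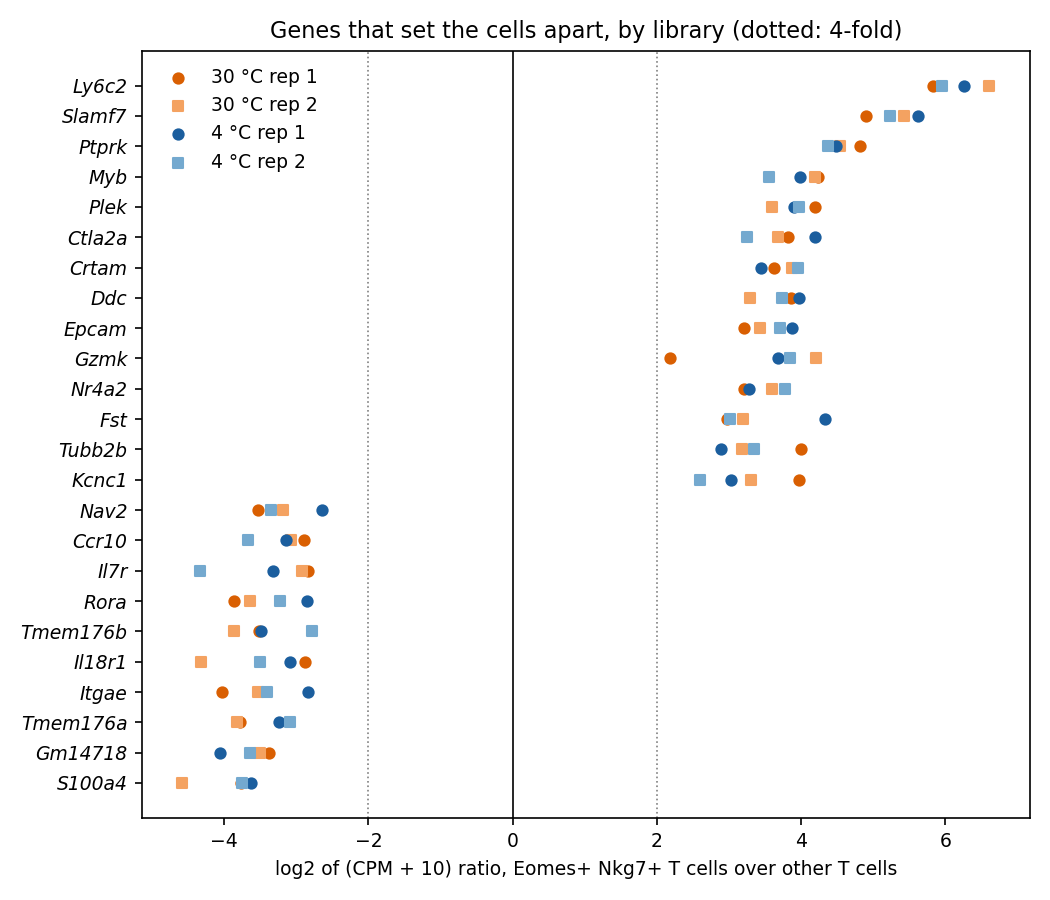
Log2 ratio of CPM + 10 in Eomes+ Nkg7+ T cells over other T cells (x axis) for genes named among the highest and for the 10 lowest past 4-fold (y axis), 1 point per library. Ly6c2 lies near 6 in all 4 libraries, Gzmk spreads widest among the higher genes, and S100a4 lies lowest on average (-3.93).

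The lowest mean ratio was that of S100a4, a calcium-binding protein of effector and memory T cells, with -3.93 ± 0.44, at 120, 56.9, 136 and 113 CPM against at least 1586 CPM in other T cells. With Eomes or Nkg7 in place of both, its ratio was 0.10, and 17 genes lay past 4-fold higher and none lower. Il7r, the interleukin 7 receptor of naive and memory T cells, had -3.35 ± 0.68, and Itgae, the integrin CD103 of resident T cells, had -3.45 ± 0.49. Il18r1 (-3.44 ± 0.63), Rora (-3.39 ± 0.45), the chemokine receptor Ccr10 (-3.19 ± 0.34) and Nav2 (-3.18 ± 0.38) were lower as well. Gm14718 (3 UMIs in the 191 cells), Tmem176b (3 UMIs) and Tmem176a (1 UMI) were nearly at 0. Tmem176a was 187 times higher in other T cells, with a counting interval of 33.6 to 7409. Counting intervals, here and below, treat each UMI as independent and leave out the spread between cells and between libraries. The type 2 helper gene Il4 had no UMI and was at least 29.2-fold lower, with 3 counts set over the whole group.

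Chat, whose promoter drove the sorting marker, had a UMI in 48.7% of the cells against 38.9% of other T cells and 35.8% of B cells. These cells were deeper than other T cells (median 7655 against 6025 UMIs), and per UMI the level of Chat was close in both, at 113 and 110 CPM over the 4 libraries together, against 63.3 CPM in B cells. It stood at 101 and 94.8 CPM at 30 °C and at 125 and 118 CPM at 4 °C. The temperatures did not overlap, which held for 22.4% of all genes tested in the higher direction, and the difference did not pass the test (log2 fold change 0.26, SE 0.25, edgeR adjusted p = 0.83). Of the 9 acetylcholine genes listed, 3 were tested and none passed. As 0.273% of all genes tested were called, this count is no result about the list.

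The effect of 4 h at 4 °C was tested on the UMIs summed per library with edgeR's quasi-likelihood test, over 4770 genes that passed its filter on low counts. Changes were called at an adjusted p (Benjamini-Hochberg) below 0.05. In these cells 13 genes were called (0.273% of the genes tested), 2 higher at 4 °C (0.0419%) and 11 lower (0.231%). At an unadjusted p below 0.05 there were 367. Among the genes lower at 4 °C were Txnip, Tsc22d3, Zfp36l2, Il7r and Cxcr4, and the higher ones were Cd52 and Twist1. The same test in other T cells, whose UMIs summed to 15855204 against 1733182, called 471 of 10053 genes (4.69%), 202 higher (2.01%) and 269 lower (2.68%). Of the 13 genes, 12 were tested there and 9 were called in the same direction.

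Txnip, an inhibitor of thioredoxin and of glucose uptake that FOXO factors and glucose control, had the lowest p. It stood at 808 and 574 CPM at 30 °C and at 145 and 128 CPM at 4 °C. Both libraries at 4 °C lay far below both at 30 °C. Its log2 fold change was -2.39 (SE 0.20, edgeR adjusted p = 3.40e-06). With at least 2 UMIs of Eomes and of Nkg7 and 3 of CD3, it was -2.47 and no longer passed (adjusted p = 0.279), and 9 of the 13 genes were called. In other T cells Txnip had -1.63 (SE 0.27) and did not pass (adjusted p = 0.147). Tsc22d3, which encodes the glucocorticoid-induced leucine zipper GILZ, stood at 265 and 198 CPM at 30 °C and at 47.6 and 38.4 CPM at 4 °C. Again the temperatures did not overlap, and the log2 fold change was -2.48 (SE 0.27, edgeR adjusted p = 7.49e-05). Of its 92 positive cells none had more than 8 UMIs, so that no single cell carried the level.

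In the annotation of GRCm38, Txnip lies at chr3:96557957-96561883 on the plus strand and Tsc22d3 at chrX:140539528-140600659 on the minus strand. The promoters of these genes are shown because both were called with the lowest p, and because Txnip is known as a target of FOXO and Tsc22d3 of the glucocorticoid receptor. Each runs from 250 bases before to 50 bases after the RefSeq start on GRCm38.p6, 5′ to 3′ on the strand of the gene, and capitals mark a match to letters that these factors are known to bind. In Txnip (chr3:96557707-96558006, plus strand) the capitals are the forkhead letters GTAAACA, 121 bases before the start. In Tsc22d3 (chrX:140600473-140600772, minus strand) they are the reverse complement of AGAACA, the single-arm site of the glucocorticoid receptor, 185 bases before the start.
Txnip: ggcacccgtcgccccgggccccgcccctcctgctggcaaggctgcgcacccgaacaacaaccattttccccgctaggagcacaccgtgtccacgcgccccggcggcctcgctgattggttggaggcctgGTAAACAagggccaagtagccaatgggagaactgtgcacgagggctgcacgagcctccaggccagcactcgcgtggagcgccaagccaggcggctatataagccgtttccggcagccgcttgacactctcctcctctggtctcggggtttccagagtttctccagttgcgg
Tsc22d3: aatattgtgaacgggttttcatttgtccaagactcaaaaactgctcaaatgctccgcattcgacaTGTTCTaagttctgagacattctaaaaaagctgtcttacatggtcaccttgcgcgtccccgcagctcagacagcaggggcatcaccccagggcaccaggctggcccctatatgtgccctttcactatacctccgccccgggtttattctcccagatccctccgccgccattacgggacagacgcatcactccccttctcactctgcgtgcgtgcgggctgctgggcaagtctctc

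On both strands, GTAAACA was found in 3.66% of 32544 RefSeq promoter windows of this length and AGAACA in 18.9%. Of the 13 genes, 10 matched a promoter in the table by symbol, with 13 windows. GTAAACA was found in Txnip, and AGAACA in Cxcr4, Pdcd4, Rpap3 and Tsc22d3. The full palindromic glucocorticoid response element (AGAACA, any 3 bases and TGTTCT, which therefore contains AGAACA) was found in none of the 10, and in 0.0092% of all windows. A match is a description of the letters in this window only.

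Zfp36l2, an RNA-binding protein that shortens the life of AU-rich mRNAs, stood at 888 and 859 CPM at 30 °C and at 459 and 366 CPM at 4 °C (log2 fold change -1.14, SE 0.16, edgeR adjusted p = 0.00189). The temperatures lay apart by more than the spread within either. Il7r stood at 127 and 116 CPM at 30 °C and at 43.3 and 14.4 CPM at 4 °C (log2 fold change -2.20, SE 0.38, adjusted p = 0.0134). Other T cells stood at 968 and 947 CPM at 30 °C. Of the 78 Il7r UMIs at 30 °C, 31 lay in 4 cells with many Cd8 UMIs and 23 in 3 Cd4-only cells, so that few cells carried the level.

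Cxcr4, a chemokine receptor that glucocorticoids raise, stood at 188 and 135 CPM at 30 °C and at 58.4 and 71.9 CPM at 4 °C (log2 fold change -1.33, SE 0.27). Pdcd4, an inhibitor of translation, fell by less, from 583 and 607 CPM to 376 and 339 CPM (log2 fold change -0.79, SE 0.16). Hnrnpdl, an RNA-binding protein of splicing, had -1.12 (SE 0.21) and Rpap3, a co-chaperone of HSP90, -1.63 (SE 0.27). Kcnc1 (-1.29, SE 0.25), 4932438A13Rik (-1.37, SE 0.25) and Gm20186 (-1.27, SE 0.25) complete the falls, with adjusted p between 0.0102 and 0.0457 for the 7 genes of this paragraph. In all 7 the libraries of the 2 temperatures did not overlap, which held for 16.9% of all genes tested in the same direction. Such separation was a condition for naming a called gene here, so it adds no support.

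Higher at 4 °C were Cd52 and Twist1. Cd52, a small glycoprotein of the lymphocyte surface, stood at 714 and 661 CPM at 30 °C and at 1469 and 1191 CPM at 4 °C (log2 fold change 0.90, SE 0.14, edgeR adjusted p = 0.0083). Over the 4 libraries together Cd4-only cells had 2970 CPM of Cd52, Cd8-only cells 1025 and cells with neither 494. Both Cd52 and the share of Cd4-only cells were higher at 4 °C. The part of this share in the change was not tested. The log2 fold change of Cd52 was 1.21 in cells with Cd4 and no Cd8 UMI, where edgeR called 0 of 692 genes, with 58 at an unadjusted p below 0.05 (adjusted p = 0.571 for Cd52), and 0.35 in the 158 cells without a Cd4 UMI (adjusted p = 0.508). The call was also lost with Eomes or Nkg7 in place of both (0.50, adjusted p = 0.585) and without 30 °C replicate 1 (0.96, adjusted p = 0.0912). The other 12 genes were called in the cells without a Cd4 UMI as well, among 19 calls in all. Tsc22d3 there had -2.17 and Txnip -2.33. At 30 °C Tsc22d3 had a UMI in 3 of 7 Cd4-only cells, 21 of 28 Cd8-only cells and 36 of 48 with neither, and at 4 °C in 1 of 22, 12 of 35 and 18 of 47.

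Twist1, a transcription factor that Th1 cells express, had 0 and 2 UMIs at 30 °C, against 22 and 34 at 4 °C. These lay in 8 of the 191 cells, and 1 cell held 27 of the 58. The ratio of the summed UMIs was 16.6, with a counting interval of 4.39 to 140. Twist1 was called (edgeR adjusted p = 0.0134), but 8 cells of pooled mice are few. With DESeq2 its log2 fold change was 4.03 and it was not called (adjusted p = 0.396). The call was also lost without 30 °C replicate 1 (log2 fold change 3.14) or without 4 °C replicate 2 (3.77).

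**Figure D4:**
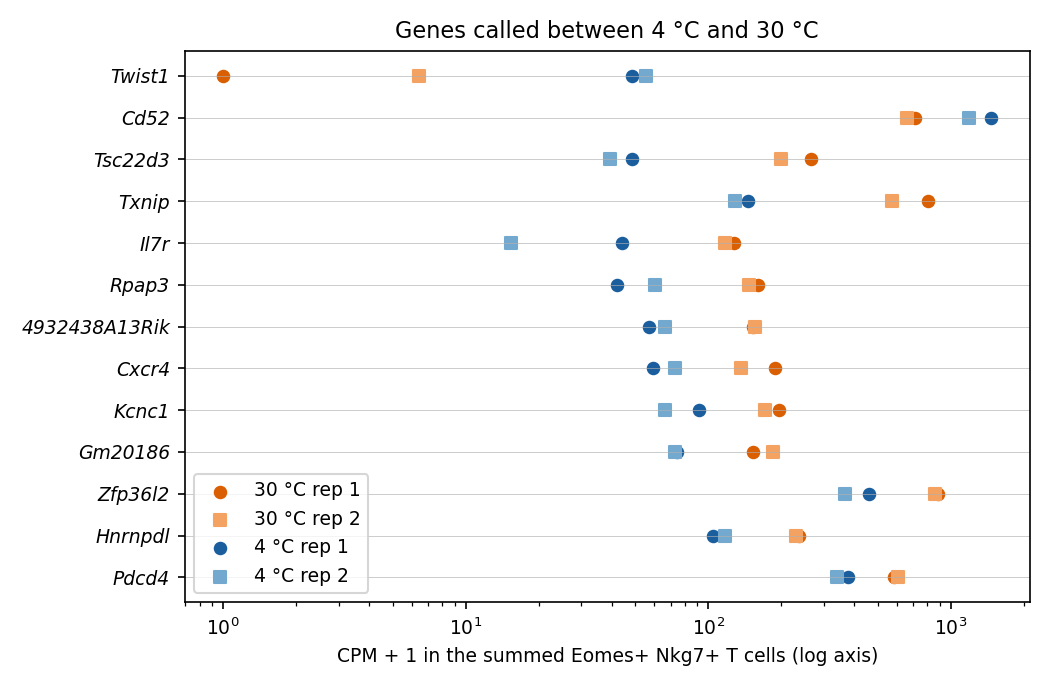
CPM + 1 (x axis, log scale) of the 13 genes called between temperatures (y axis) in the summed Eomes+ Nkg7+ T cells, 1 point per library. Blue points (4 °C) lie left of orange points (30 °C) in 11 genes and right of them in Twist1 and Cd52.

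The calls rested on few cells per library. Without 30 °C replicate 1, which had the fewest cells (36), 4 genes were called and 2 of the 13 were among them, Tsc22d3 and Txnip. Without each of the other libraries in turn, 35 to 62 genes were called, with 11 to 13 of the 13 among them. DESeq2 called 4 genes, all of them among the 13.

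Of the 13 called genes, 4 lay in the lists of glucocorticoid and FOXO targets, and counts in lists stand beside 0.231% of all genes tested that were called lower. Of 14 glucocorticoid-induced genes, 6 were tested and 2 were called, both lower (Tsc22d3 and Cxcr4). The median log2 fold change of the 6 was -0.71, against 0.00 over all genes tested, with 5 lower at 4 °C and 1 higher. Ddit4 (-0.93, SE 0.45) and Dusp1 (-0.43, SE 0.23) did not pass. Of 15 FOXO targets, 13 were tested, 2 were called lower (Txnip and Il7r) and the median was -0.33. Pik3ip1 (-1.23, SE 0.36) had an adjusted p of 0.322 and did not pass.

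Of 10 genes of naive and memory T cells, 9 were tested and Il7r was called (0.231% of all genes tested were called lower). The median of these was -0.33, and Satb1 (-1.17, SE 0.33) and Lef1 (-0.56, SE 0.21) did not pass. Of 21 genes listed as immediate early, 18 were tested and 1 was called, Zfp36l2, which was lower at 4 °C (beside the same 0.231%). The median of the 18 was 0.11, with 9 higher at 4 °C and 9 lower. Junb, a subunit of AP-1, stood at 475 and 463 CPM at 30 °C and at 883 and 710 CPM at 4 °C without passing (log2 fold change 0.71, SE 0.16, edgeR adjusted p = 0.101), and Fosb had 0.75 (SE 0.24, adjusted p = 0.397).

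Ifng had 2 and 5 UMIs at 30 °C, against 20 and 32 at 4 °C, in 17 cells, 1 of which had 20 UMIs. The ratio of summed UMIs was 4.41 (counting interval 1.99 to 11.5), an interval that takes no account of cells or libraries. The fit over libraries gave a log2 fold change of 2.05 and did not pass (SE 0.50, edgeR adjusted p = 0.129). In other T cells Ifng was called with 1.49 (SE 0.19). A test of the difference between both kinds of T cell gave 0.59 (SE 0.64, adjusted p = 1). The receptor gene Ifngr1 had -1.35 (SE 0.29, adjusted p = 0.0624) in these cells and -1.68 (SE 0.09) in other T cells. Ltb (0.55, SE 0.18) and Tgfb1 (0.74, SE 0.29) did not pass. With 0.273% of all genes called, lists of this size would seldom hold a call, and their counts of 0 are no result about them. None of 8 cytotoxic granule genes tested was called (median 0.26), nor any of 14 interferon-stimulated genes (median 0.03), 8 NF-κB genes (median 0.06), 10 cold and heat shock genes (median 0.19), 10 glycolytic genes (median 0.09) or 86 ribosomal protein genes (median -0.12). Of the 13 mitochondrially encoded genes none was called, although all 13 had a log2 fold change below 0 (median -0.25). The median mitochondrial share was 3.56% and 3.83% at 30 °C and 3.44% and 3.27% at 4 °C. The limit of 7.5% mitochondrial UMIs acts on these genes, which stayed in the test. Of cells that met the rest of the rule, this limit left out 0 and 0 at 30 °C and 2 and 3 at 4 °C.

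Lineage genes did not pass the test either. Cd4 had a log2 fold change of 0.89 (SE 0.39, edgeR adjusted p = 0.58), with 36.2 and 24.4 CPM at 30 °C, against 45.4 and 67.1 CPM at 4 °C, which did not overlap (as in 22.4% of all genes tested, in the higher direction). Cd8a had 0.51 (SE 0.36), Cd8b1 0.12 (SE 0.31) and Runx3 0.79 (SE 0.31).

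Whether these cells changed otherwise than other T cells was tested by the interaction of cell type and temperature over 8 sums of UMIs. Of 9552 genes, 2 were called (0.0209%), Gsto1 and Fkbp5. Fkbp5, a co-chaperone of the glucocorticoid receptor that glucocorticoids induce, stood at 97.8 and 94.8 CPM in these cells at 30 °C and at 71.4 and 70.3 CPM at 4 °C. In other T cells it stood at 205 and 196 CPM at 30 °C and at 51.6 and 54.4 CPM at 4 °C. It was thus lower than in other T cells at 30 °C and higher at 4 °C, and it fell by 0.49 (SE 0.27) against 1.98 (SE 0.09) on the log2 scale. The difference was 1.47 (SE 0.30, edgeR adjusted p = 0.00714). By contrast, Tsc22d3, induced by the same hormones, had -2.48 here and -1.67 in other T cells, a difference that did not pass (-0.82, SE 0.29, adjusted p = 0.571). With Eomes or Nkg7 in place of both, the Fkbp5 interaction was 0.70 and not called (edgeR adjusted p = 0.141). Fkbp5 was then called lower at 4 °C in these cells (-1.28, adjusted p = 0.000569). With at least 2 UMIs of Eomes and of Nkg7 and 3 of CD3, the interaction was 1.18 (adjusted p = 0.173). With 1 library left out it was 1.44 to 1.54, and called only without 4 °C replicate 1.

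Gsto1, a glutathione transferase, had only 1 and 3 UMIs at 30 °C, against 2 and 18 at 4 °C in these cells. In other T cells it stood at 67.4 and 70.0 CPM at 30 °C and at 12.7 and 11.9 CPM at 4 °C. The interaction was 3.98 (SE 0.70, edgeR adjusted p = 0.000338), but 18 of the 24 UMIs lay in 4 °C replicate 2, without which it was 1.94 and not called (adjusted p = 1). DESeq2 called neither gene, and no gene in all, with 76 at an unadjusted p below 0.05 against 506 in edgeR. Il7r had a difference of -1.23 (SE 0.31) that did not pass (adjusted p = 0.153).

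**Figure D5:**
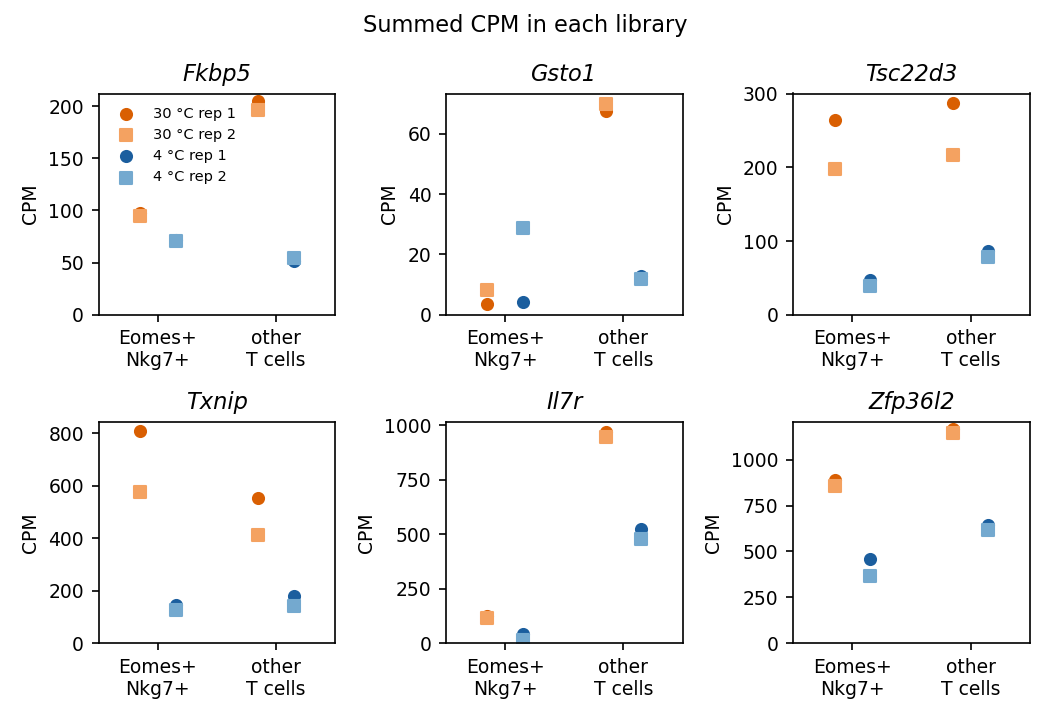
CPM (y axis, from 0) of 6 genes in the summed Eomes+ Nkg7+ T cells and in other T cells (x axis), 1 point per library. Fkbp5 lies between 70.3 and 97.8 in the Eomes+ Nkg7+ cells and spans 51.6 to 205 in other T cells, while Tsc22d3, Txnip, Il7r and Zfp36l2 lie lower at 4 °C in both.

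Markers of other cells were read beside these results. Of 5 B cell genes beside Cd79a, all were found, summing to 333 and 241 CPM at 30 °C and to 249 and 221 CPM at 4 °C. The most abundant was Ighm with 382 UMIs. Other T cells had 437 to 532 CPM of the same genes. The plasma cell list (4 of 4 genes found, led by Jchain) summed to 246, 184, 154 and 176 CPM, above the 153, 175, 89.4 and 162 CPM of other T cells in all 4 libraries. The macrophage list (6 of 6 beside C1qa, led by Cd68) summed to 47.1, 32.5, 69.2 and 40.0 CPM against 99.4, 11.1, 26.4 and 20.5 CPM, and was higher in 3 of the 4. Of 5 dendritic cell genes 2 were found, with at most 2.16 CPM against 9.81 to 24.8 CPM, and of 7 stromal and endothelial genes 4, with 36.2, 51.5, 38.9 and 41.5 CPM against 54.4 to 211 CPM. Of these lists, 1 B cell, 3 plasma cell, 1 macrophage and 1 stromal or endothelial gene were tested between temperatures, and no dendritic cell gene. None was called, beside 0.273% of all genes tested, so that this count is no result about the lists. Their part in the results above was not tested.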

How the data were processed

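The authors aligned reads of 10x Genomics 3′ libraries to mm10 (GRCm38) and deposited raw counts of UMIs, not normalized, for each gene in each cell. The deposited matrices name Cell Ranger 3.0.0, the submitters' processing notes 3.1.0. Cells with gene numbers above 200 and below 5000 and with under 7.5% mitochondrial UMIs were kept. The study's limits are close to these, but its methods also removed rare genes first. The 191 cells, the comparison groups, gene lists and tests were chosen with earlier results of these data known. UMI counts were summed per library, and the temperatures were compared with edgeR 4.0.16 (TMM, filterByExpr, quasi-likelihood test, Benjamini-Hochberg adjustment, threshold 0.05) under R 4.3.3, with the 10 genes of the rule left out of the tests and the counts. DESeq2 1.42.0 was an alternative. The interaction fit held a term per library. The edgeR fit of these cells and the interaction fit were also run on simulated counts, and DESeq2 was not. The outcome of these runs is not given, and no result above rests on them. Shares were compared over libraries by exact permutation (scipy 1.17.1), with Clopper-Pearson intervals at 95%. Scrublet (scanpy 1.11.5) marked doublets, which were kept. Genes named are the called genes whose temperatures did not overlap with at least 20 UMIs (up to 12 each way), the 15 highest and 10 lowest past 4-fold against other T cells, called interactions, up to 4 of each list by lowest p, and lineage and label genes. Some of these are not reported here. The genes set against the Cd4 and Cd8 groups, the split by Cd8 UMIs, the cells without a Cd4 UMI and the thinned sums were chosen after values had been seen. Replicates are pools of separate mice. Promoters and names come from RefSeq and GENCODE. With sums of 275991 to 625775 UMIs per library, the filter on low counts left 4770 genes to test between temperatures. Genes with UMIs in few cells, such as Twist1 (8 cells), were among them.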

Additional observations from a re-analysis of the deposited data

Results flagged for a closer look

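Gsto1 and Fkbp5 differed between Eomes+ Nkg7+ T cells and other T cells in their response to 4 °C by the test of the interaction. The interaction of Fkbp5 was 1.47 (SE 0.30, edgeR adjusted p = 0.00714). It was called under 8 of 15 alternatives, with values of 0.70 to 1.89. The interaction of Gsto1 was 3.98 (SE 0.70, edgeR adjusted p = 0.000338). It was called under 10 of 14 alternatives, with values of 0.44 (Eomes or Nkg7 in place of both, not called) to 10.6. Without 4 °C replicate 2 it was 1.94 and not called. Neither was called by DESeq2.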

How the results depend on the processing

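The number of genes called between temperatures in Eomes+ Nkg7+ T cells (13) became 28 with no filter on low counts, 4 with DESeq2, 79 with Eomes or Nkg7 in place of both, 15 with the stricter rule (9 shared), 8 with cells thinned to 4000 UMIs and 4 to 62 with 1 library left out (4 without 30 °C replicate 1). In cells with Cd4 and no Cd8 UMI, edgeR called 0 of 692 genes, with 58 at an unadjusted p below 0.05. Other T cells had 198 calls with DESeq2, 192 with Cd4 and no Cd8 UMI, and 271 to 518 with 1 library left out. Scaled to library totals alone, they had 334 genes higher and 219 lower, against 202 and 269. The 2 interaction calls became 5 with RLE factors, 4 with no filter, 1 with 10 UMIs in every library, 0 with DESeq2, 5 with a mitochondrial limit of 15%, 11 with a stricter rule, 4 with a looser rule, 5 with Cd4 and no Cd8 UMI, and 1 to 17 with 1 library left out. The looser rule left 17 genes past 4-fold, none lower, and gave library means of 26.2% of cells with Cd4 and no Cd8 UMI (14.2% under the rule used) and 26.3% with Cd8 (34.9%), the latter being 25.8% at 4000 UMIs. The causes were not tested.

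Among fold changes that were not called, these changed sign. Cd8b1 had -0.021 under the looser rule and -0.23 to 0.71 with 1 library left out (-0.21 without 4 °C replicate 1). Slamf7 had -0.037 under the stricter rule, -0.12 under the looser, -0.015 thinned and -0.13 to 0.16 with 1 library left out. Ly6c2 had -0.47 to 0.20 with 1 library left out and 0.10 without Cd4 cells. Under the looser rule Chat had -0.0018. The S100a4 ratio, past 4-fold lower at -3.93, became 0.10 under the looser rule. In cells with Cd4 and no Cd8 UMI, Cd4 had -1.08, Dusp1 0.19 and Ccl5 -1.51. Ccl5 ranged from -1.36 to 3.68 with 1 library left out. Over the alternatives of the 13 called genes, 178 values kept direction and call, 47 kept direction without the call and none reversed.

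Same-numbered libraries were not paired by the labels, and their deviations from the mean of their temperature correlated at 0.0325 over genes. With 2 libraries per temperature both pairs give this value by construction, so it is 1 number and not 2. With the replicate block 43 genes were called in these cells and 659 in other T cells. The cells without a Cd4 UMI and the thinned sums were added after seeing the data. Depth limits calls of genes with few UMIs, although Twist1, with UMIs in 8 cells, was called.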
